A study of Arabidopsis thaliana with 14 samples.

Results

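MicroRNA (miRNA) genes are transcribed into long polyadenylated precursors. In plants the nuclease DICER-LIKE1 (DCL1) cuts a hairpin and then a short duplex out of the precursor, and one strand of the duplex guides ARGONAUTE1 (AGO1) to complementary mRNAs. Several Arabidopsis families are old and act on transcription factors that set organ identity and phase change, others respond to copper or sulfate supply, and many are young families found in few species. The libraries described here hold mRNA, so a count on a miRNA gene measures long transcripts that cover it and not the mature miRNA.

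The genes described are the gene rows that the deposited tables type as miRNA, 177 of 27394 gene rows. Of these, 41 had at least 10 counts in at least 2 of 14 libraries and are described, and 136 did not, of which 40 had no count in any library. The gene just inside this limit, MIR160b, had 13 and 10 counts in its highest libraries, and 11 genes just outside it reached 10 counts in 1 library only. Messenger RNA came from siliques of Arabidopsis thaliana Col-0, 3 siliques per library, collected 6 to 9 days after anthesis. The groups were wild type (WT, n = 2), untreated plants of the insertion allele jas-3 (n = 2), jas-3 controls for the solvent dimethyl sulfoxide (DMSO, n = 3), and the jas-3 line Aza1, which descends from a seedling grown on the DNA methylation inhibitor 5-Azacytidine, in the generations eM2 (n = 3) and eM3 (n = 4). The labels call these generations eM1 and eM2, and the names of the study are used here. By the labels every group but WT carries jas-3, and the pollen of jas-3 plants is described as partly diploid, which gives siliques with a mixture of diploid and triploid seeds. All Aza1 libraries come from 1 treated line, and the spread between treated lines was not measured.

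Total gene counts were 40526464 to 43974069 per library, of which miRNA genes took 2287 to 4593. Counts on the mutated gene JASON were 14 and 14 in WT and 80 to 225 in the other libraries. This is against the direction of an insertion that lowers transcripts, and where in the gene the reads fall is not given. The untreated group is therefore called the jas-3-labelled libraries throughout. DMSO and Aza1, which carry the same label, are named by their treatment, and the genotype of all 12 rests on the labels. Genes for seed storage proteins took 36.7% and 42.5% of the gene counts in WT and 8.0% to 30.7% elsewhere. This share goes with the groups, and a change in the mixture of seed tissues and a change in RNA per cell cannot be told apart in whole siliques. Scaling libraries by total gene counts in place of TMM, edgeR's trimmed mean of M-values, moved the median log2 fold change of all genes against WT from 0.06 to 0.85 in the jas-3-labelled libraries and from 0.04 to 0.74 in DMSO, and values below are those with TMM unless stated.

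The mature sequences of the families on which the results turn are printed from RefSeq (TAIR10.1), in which all 177 genes were found. The seed, bases 2 to 8, is in capitals. They are shown because members with the same mature sequence can be told apart here only through their precursors.
miR845b: uCGCUCUGauaccaaauugaug
miR845a: cGGCUCUGauaccaauugaug
miR156a-5p: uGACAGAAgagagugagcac
miR167d: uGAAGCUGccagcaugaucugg
miR167a-5p: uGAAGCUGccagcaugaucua
miR171b-3p: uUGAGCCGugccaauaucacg
miR398b-3p: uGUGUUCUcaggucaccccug
miR163: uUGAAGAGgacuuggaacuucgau

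The 41 genes gave 61 annotated mature miRNAs with 54 different seeds, of which 5 were shared. miR156a-5p, miR156c-5p and miR156d-5p shared GACAGAA, and the 3 were identical to the sequence printed above. miR167a-5p, miR167b and miR167d shared GAAGCUG, and miR167d differed from the other two at its 3′ end. miR398b and miR398c shared both arms. The seeds of miR845a and miR845b differed, but both miRNAs held the run GCUCUGAUACCAA at positions 3 to 15 from the 5′ end.

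**Figure D1:**
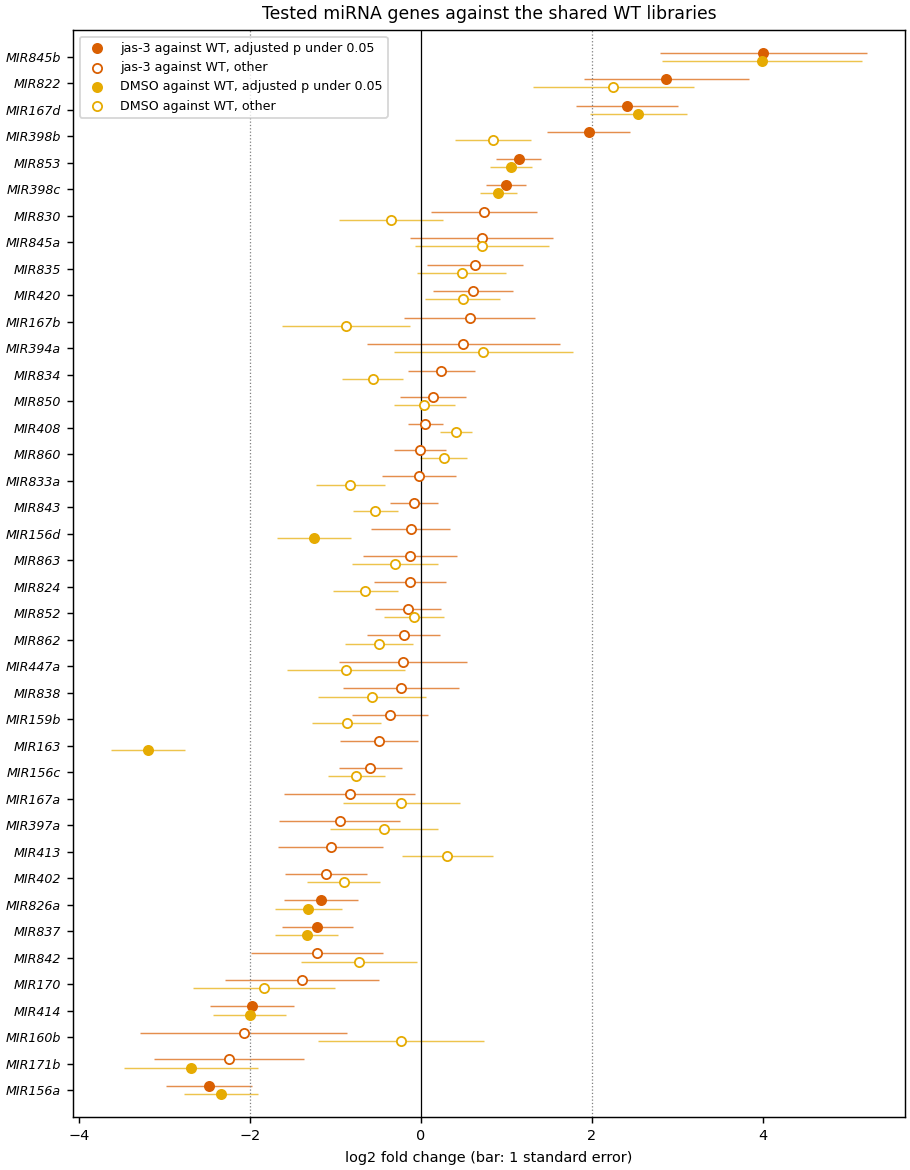
Log2 fold change of the 40 tested miRNA genes (vertical axis) in the jas-3-labelled libraries and in DMSO, both against the same 2 WT libraries, with bars of 1 standard error and filled points at an adjusted p under 0.05. MIR845b, MIR822 and MIR167d lie furthest to the right in jas-3 against WT, and MIR163 is the gene for which both comparisons differ most.

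The first comparison asks which precursors differ in siliques with triploid seeds. MIR167d was called higher and MIR156a lower in the jas-3-labelled libraries against WT, where a call means a change of 2 or more on the log2 scale with an adjusted p under 0.01 (edgeR quasi-likelihood test, Benjamini-Hochberg adjustment over 22359 genes). Thus 1 of 40 tested miRNA genes was called higher, beside 7.08% of all genes, and 1 was called lower, beside 1.99%. At an adjusted p under 0.05 without a minimum fold, 6 were higher (all genes, 23.7%) and 4 were lower (all genes, 16.5%). The higher genes were MIR845b, MIR822, MIR167d, MIR398b, MIR853 and MIR398c, and the lower ones were MIR156a, MIR414, MIR837 and MIR826a. The groups did not overlap for 8 genes that were higher and 13 that were lower, against 72% of all genes that did not overlap in either direction. The median log2 fold change of the 40 genes was -0.13. With total gene counts as the scale the calls were 4 higher and 0 lower, and with the share of storage proteins as a covariate no miRNA gene was called in either direction, 4 of 40 having an unadjusted p under 0.05. The count of 2 calls fell to 0 without WT 2, jas-3 1 or jas-3 2, and to 1 without any 1 of the Aza1 eM2 libraries or without Aza1 eM3 1 or 4.

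Against the same WT libraries, DMSO plants had 1 of 40 genes called higher (all genes, 7.44%), again MIR167d, and 3 called lower (all genes, 2.98%), namely MIR163, MIR156a and MIR414. At an adjusted p under 0.05, 4 were higher (all genes, 27.1%), namely MIR845b, MIR167d, MIR853 and MIR398c, and 7 were lower (all genes, 22.6%), namely MIR163, MIR171b, MIR156a, MIR414, MIR837, MIR826a and MIR156d. Since both comparisons use the same 2 WT libraries, they are not independent. With total gene counts as the scale, 2 were called higher and 1 lower, and with the storage protein share as a covariate none was called, 6 having an unadjusted p under 0.05. Without WT 2 the 4 calls became 2. The groups did not overlap for 7 genes that were higher and 12 that were lower (all genes, 66.2%). DMSO against the jas-3-labelled libraries, the comparison of the solvent, gave 0 genes called higher (all genes, 0.0894%) and 1 called lower (all genes, 0.121%), which was MIR163. At an adjusted p under 0.05 it was again the only one, with 0 higher (all genes, 0.599%) and 1 lower (all genes, 1%). This call depended on single libraries, as given with the values of MIR163.

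The 2 miR845 genes start 3378 bases apart on chromosome 4, both on the minus strand, MIR845b (AT4G23375) at chr4:12214069-12214167 and MIR845a (AT4G23387) at chr4:12217447-12217527 of TAIR10. miR845 is known from Arabidopsis pollen, where it is complementary to the tRNA primer binding site of long terminal repeat (LTR) retrotransposons and takes part in the response of the seed to paternal genome dosage. The reverse complement of the run shared by both miRNAs, TTGGTATCAGAGC, occurred on either strand in 128 of 31189 annotated transposable elements (TEs, 0.41%), among them 62 of 1781 LTR/Copia elements (3.48%) and 59 of 4181 LTR/Gypsy elements (1.41%). These are matches of letters and not sites shown to be used.

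MIR845b had 1 and 0 counts in WT, 19 and 14 in the jas-3-labelled libraries, and 15, 21 and 10 in DMSO. The Aza1 eM2 libraries held 1, 0 and 2 counts, and those of Aza1 eM3 held 5, 7, 10 and 1. Thus MIR845b was low in WT and in Aza1 eM2, and neither group overlapped the jas-3-labelled libraries or DMSO, while Aza1 eM3 overlapped Aza1 eM2 through 1 library. In TMM-scaled CPM, on which all statements on overlap rest, Aza1 eM3 (0.02 to 0.19) lay just under DMSO (0.21 to 0.47). Against WT its log2 fold change was 4.0 (standard error 1.21, adjusted p = 0.0202) in the jas-3-labelled libraries and 3.99 (standard error 1.17, adjusted p = 0.0136) in DMSO. In Aza1 eM2 against DMSO it was -3.49 (standard error 0.87, adjusted p = 0.0436), the only miRNA gene at an adjusted p under 0.05 in that comparison. In Aza1 eM3 against Aza1 eM2 it was 2.17 (standard error 0.90), which did not pass the test (adjusted p = 0.282). The counts are small. WT held 1 count in all and Aza1 eM2 held 3, and the scaled ratio of DMSO to Aza1 eM2 was 12.4 (95% exact interval 4.0 to 62.5, counting error only). The ratio of the jas-3-labelled libraries to WT was 18.4 (95% exact interval 3.09 to 750.5). If mates of a pair were counted separately, which the sources used here do not give, these intervals are too narrow. Over 21 alternatives the adjusted p of Aza1 eM2 against DMSO ranged from 0.0196 to 0.212, and it passed 0.05 in 9 of them, with a negative log2 fold change in all 21. Leaving out any 1 of the 3 Aza1 eM2 libraries, DMSO 1 or 2, either jas-3-labelled library or Aza1 eM3 1 or 2 ended the call (adjusted p = 0.0562 to 0.151). Against WT, leaving out WT 2 ended it in both comparisons (adjusted p = 0.122 and 0.0978), and leaving out jas-3 1 did so in the first (adjusted p = 0.0772). The storage protein share as a covariate also ended it in both (adjusted p = 0.493 and 0.244).

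MIR845a had 5 and 2 counts in WT, 7 and 13 in the jas-3-labelled libraries, 11, 12 and 6 in DMSO, 3, 3 and 4 in Aza1 eM2, and 9, 4, 10 and 1 in Aza1 eM3. It was lowest in the same groups as MIR845b, but the jas-3-labelled libraries overlapped WT. The log2 fold change of MIR845a was 0.71 in the jas-3-labelled libraries against WT (adjusted p = 0.523) and -1.20 in Aza1 eM2 against DMSO (adjusted p = 0.391), neither of which passed the test.

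The 3 protein-coding genes beside the miR845 genes changed in the same comparisons as MIR845b, and their part in the counts on the miRNA genes was not tested. AT4G23380, a protein-coding gene on the same strand separated from the 5′ end of MIR845b by a row of 501 bases, had 21 and 4 counts in WT, 1160 and 1741 in the jas-3-labelled libraries, 1797, 1775 and 1502 in DMSO, 253, 501 and 310 in Aza1 eM2, and 1992, 1030, 1445 and 905 in Aza1 eM3. AT4G23390, separated from the 5′ end of MIR845a by a row of 280 bases, had 26 and 20 counts in WT and 213, 363 and 290 in Aza1 eM2, against 943 to 2108 in all other libraries. AT4G23370, downstream of MIR845b, had 44 and 22 counts in WT, 252, 558 and 320 in Aza1 eM2, and 628 to 1359 elsewhere. All 3 genes, chosen after their values were seen, were thus lowest in WT and low in Aza1 eM2. Their log2 fold changes were 4.16 to 6.06 in the jas-3-labelled libraries against WT, and in Aza1 eM2 against DMSO -1.41 (AT4G23370, adjusted p = 0.0145), -1.98 (AT4G23380, adjusted p = 0.00336) and -2.47 (AT4G23390, adjusted p = 0.00101). In Aza1 eM3 against Aza1 eM2, AT4G23380 rose by 1.75 on the log2 scale (adjusted p = 0.00783) and AT4G23390 by 2.13 (adjusted p = 0.00256).

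The intergenic row of 501 bases between AT4G23380 and MIR845b had 1 and 0 counts in WT, 55 and 48 in the jas-3-labelled libraries, 51, 54 and 62 in DMSO, 6, 13 and 7 in Aza1 eM2, and 32, 27, 39 and 25 in Aza1 eM3. In a fit over 9701 intergenic rows, added after the data were seen, the row changed by 5.64 (log2) in the jas-3-labelled libraries against WT (adjusted p = 1.42e-05; 16.1% of rows were higher at an adjusted p under 0.05), by -2.39 in Aza1 eM2 against DMSO (adjusted p = 0.00041; 7.64% were lower) and 1.64 in Aza1 eM3 against Aza1 eM2 (adjusted p = 0.00517; 5.94% were higher). The row of 280 bases before MIR845a had counts close to those of MIR845a in each library and, like it, passed no test (0.77, adjusted p = 0.558, in the jas-3-labelled libraries against WT and -1.34, adjusted p = 0.292, in Aza1 eM2 against DMSO). Neighbouring rows meet at their border base, and whether a read across it counts on both rows is not given in the sources used here. Per kb, MIR845b lay below AT4G23380 in every library.

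**Figure D2:**
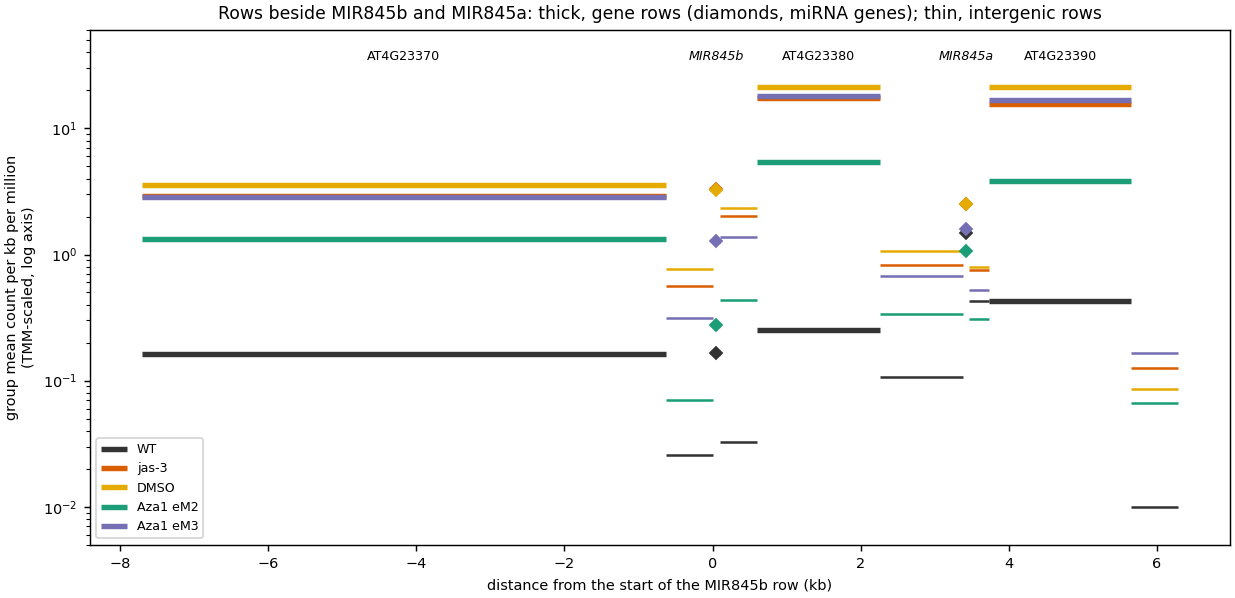
Group mean of TMM-scaled CPM per kb (log axis) on the rows around MIR845b, against the distance in kb from the start of the MIR845b row; transcription runs from right to left. Gene rows are thick, miRNA genes are diamonds and intergenic rows are thin. On the 3 protein-coding genes WT is lowest, Aza1 eM2 is next, and the other groups lie above them.

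The miR156 family acts on SPL transcription factors, which promote the change from juvenile to adult growth. MIR156a (AT2G25095, chr2:10676472-10676553) had 79 and 63 counts in WT, 22 and 23 in the jas-3-labelled libraries, and 19, 13 and 39 in DMSO. It had 19, 26 and 26 in Aza1 eM2 and 24, 39, 26 and 32 in Aza1 eM3, so that WT lay above all 12 other libraries. Its log2 fold change against WT was -2.48 (standard error 0.50, adjusted p = 0.00249) in the jas-3-labelled libraries and -2.34 (standard error 0.44, adjusted p = 0.000988) in DMSO. Leaving out any 1 library of WT or of jas-3 ended the first call, with an adjusted p of 0.0104 to 0.0323 and a log2 fold change of -2.61 to -2.35. With total gene counts as the scale the values were -1.70 and -1.65 (adjusted p = 0.00895 and 0.00512), under the minimum fold. With the storage protein share as a covariate neither value passed an adjusted p of 0.05. Over 23 alternatives the values ranged from -2.61 to -1.08 in the jas-3-labelled libraries and from -2.92 to -1.22 in DMSO. The intergenic rows before and after MIR156a were lower as well (log2 fold change -2.09, adjusted p = 0.0109, and -1.89, adjusted p = 0.00901, in the jas-3-labelled libraries against WT; 6.91% of intergenic rows were lower). MIR156d, inside an intron of AT5G10946, was lower in DMSO against WT (-1.25, adjusted p = 0.0282), and so was AT5G10946 (-1.48, adjusted p = 0.000323). MIR156d in DMSO against the jas-3-labelled libraries did not pass the test (-1.13, adjusted p = 0.306). MIR156c, the most counted of the 3, had 114 to 250 counts in all 14 libraries and passed no test. Of 11 SPL genes tested, 0 were higher and 5 were lower in the jas-3-labelled libraries against WT at an adjusted p under 0.05 (all genes, 23.7% higher and 16.5% lower), among them SPL5 (-2.20, adjusted p = 0.00166) and SPL11 (-0.90, adjusted p = 0.000897). With total gene counts as the scale SPL5 was still lower (-1.38, adjusted p = 0.00275) and SPL11 did not pass the test (-0.10, adjusted p = 0.701).

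The miR167 family acts on the auxin response factors ARF6 and ARF8 and on IAR3. MIR167d (AT1G31173, chr1:11137365-11138969) had 22 and 4 counts in WT, 150 and 94 in the jas-3-labelled libraries, 104, 82 and 189 in DMSO, 73, 90 and 89 in Aza1 eM2, and 122, 48, 131 and 82 in Aza1 eM3. WT lay below every other library. The log2 fold change against WT was 2.41 (standard error 0.60, adjusted p = 0.00761) in the jas-3-labelled libraries and 2.54 (standard error 0.57, adjusted p = 0.00319) in DMSO, and it rests on WT 2 in part. Without WT 2 it was 1.75 (adjusted p = 0.0592) and 1.90 (adjusted p = 0.0313). Leaving out either jas-3-labelled library, any of the Aza1 eM2 libraries or Aza1 eM3 1 or 4 also ended the first call (adjusted p = 0.0102 to 0.0475). With the storage protein share as a covariate the first value did not pass an adjusted p of 0.05. Over 23 alternatives the values of MIR167d ranged from 1.75 to 3.93 in the jas-3-labelled libraries and from 1.9 to 4.08 in DMSO. MIR167a and MIR167b had 4 to 20 and 2 to 22 counts and passed no test. ARF6, ARF8 and IAR3 were all lower against WT in both comparisons (log2 fold change -0.89, -0.64 and -0.82 in the jas-3-labelled libraries), but with total gene counts as the scale none passed the test there (-0.10, 0.15 and -0.02).

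The miR171 family acts on the HAM genes, which maintain meristems. MIR171b (AT1G11735, chr1:3961348-3961464) had 50 and 24 counts in WT, 3 and 23 in the jas-3-labelled libraries, 6, 8 and 14 in DMSO, 9, 15 and 28 in Aza1 eM2, and 15, 12, 5 and 6 in Aza1 eM3. It was lower in DMSO than in WT without overlap (-2.69, standard error 0.78, adjusted p = 0.0132), and WT lay above all other libraries in CPM (0.93 and 1.63 against 0.06 to 0.77). Without WT 1 the value was -2.20 (adjusted p = 0.0917), and without DMSO 1 it was -2.41 (adjusted p = 0.0501). Over 23 alternatives the value in DMSO ranged from -3.11 to -0.99, and with the storage protein share as a covariate it did not pass an adjusted p of 0.05. In the jas-3-labelled libraries against WT the log2 fold change of MIR171b was -2.24 and did not pass the test (adjusted p = 0.0578). HAM1, HAM2 and HAM3 were each lower in both comparisons against WT, with -1.13 for HAM1 (adjusted p = 0.00115) in the jas-3-labelled libraries. Scaled by total gene counts, HAM1 was -0.33 there (adjusted p = 0.0846), and HAM2 changed sign to 0.17.

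**Figure D3:**
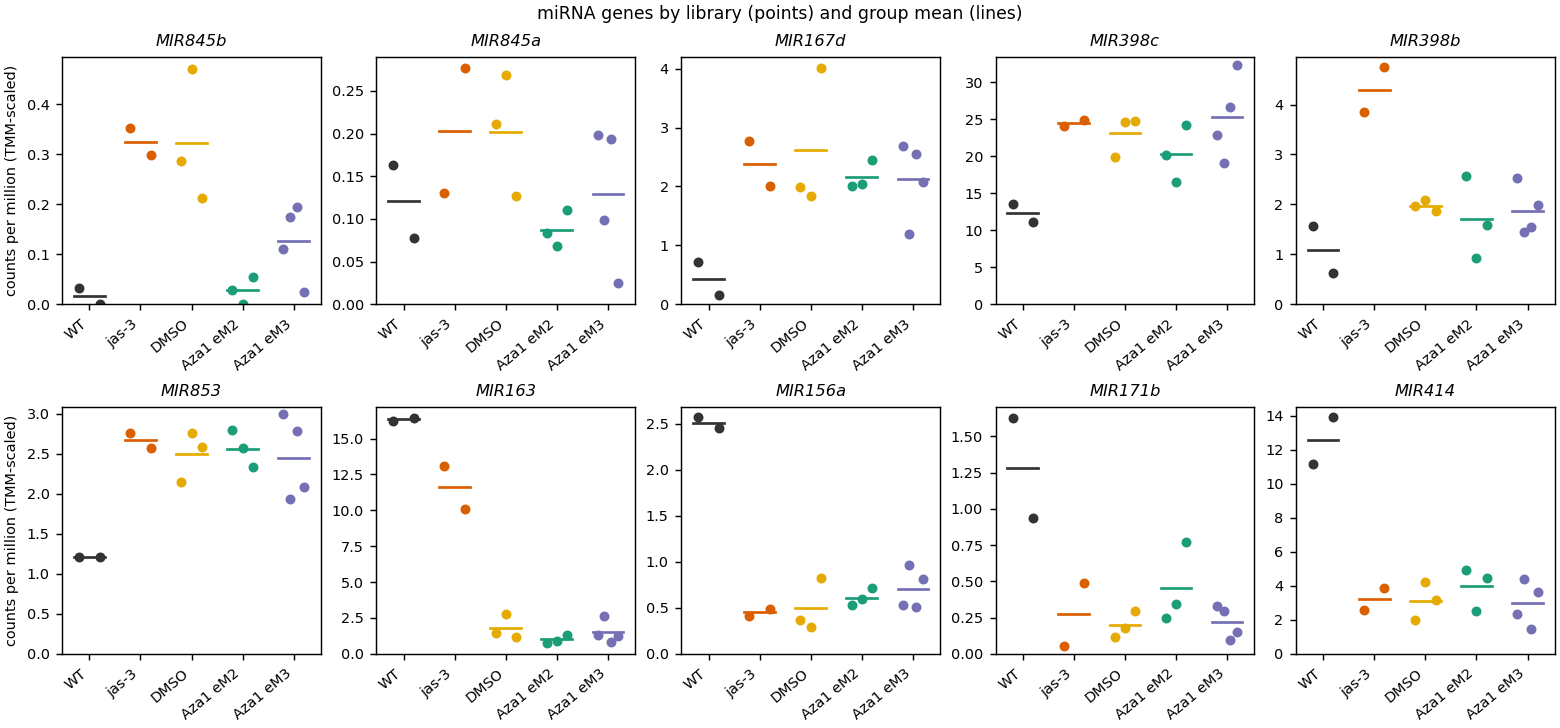
TMM-scaled CPM of 10 miRNA genes (1 panel each, vertical axes from 0) in the 14 libraries, by group, with a line at the group mean. WT lies apart from all other groups for MIR167d, MIR398c, MIR853, MIR156a and MIR414, MIR163 is high in WT and in the jas-3-labelled libraries, and MIR845b is low in WT and Aza1 eM2.

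miR398, miR408 and miR397 act on mRNAs of copper proteins and accumulate when copper is scarce. MIR398c (AT5G14565, chr5:4694626-4697013) had 415 and 286 counts in WT, 1304 and 1170 in the jas-3-labelled libraries, 1038, 1094 and 1168 in DMSO, 730, 724 and 879 in Aza1 eM2, and 1035, 770, 1373 and 1272 in Aza1 eM3. It alone took 12.5% to 39.7% of the counts on miRNA genes, and its log2 fold change against WT was 0.99 (standard error 0.23, adjusted p = 0.00589) in the jas-3-labelled libraries. This gene cannot be read as a miRNA precursor on its own. It shares 1930 of its 2388 bases with the nitrate transporter gene NRT2.7 on the other strand, NRT2.7 had 286 to 1346 counts, and MIR398c had 100% to 103% of the NRT2.7 count in every library. NRT2.7 had a log2 fold change of 0.97 (adjusted p = 0.00667), and the counting is not stated to use strand, so reads from both genes cannot be told apart.

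MIR398b (AT5G14545, chr5:4691022-4691137), which lies antisense to AT5G14550, had 48 and 16 counts in WT, 208 and 223 in the jas-3-labelled libraries, 103, 93 and 88 in DMSO, 93, 41 and 58 in Aza1 eM2, and 115, 58, 79 and 78 in Aza1 eM3. Those of the jas-3-labelled libraries lay above all others. The log2 fold change was 1.96 (standard error 0.48, adjusted p = 0.0075) in the jas-3-labelled libraries against WT, and in DMSO against the jas-3-labelled libraries it was -1.12, which did not pass the test (adjusted p = 0.292). AT5G14550 rose by 0.86 (adjusted p = 0.0105), and MIR398b held 3.0% to 14.4% of its counts, so the share differed between libraries. MIR408 had 71 to 209 counts and is antisense to AT2G47020, of whose counts it had 49.6% to 73.5%, and MIR397a had 3 to 11 counts, and neither passed a test. The superoxide dismutase CSD1 and its copper chaperone CCS, both miR398 targets, were lower in the jas-3-labelled libraries against WT (-0.97, adjusted p = 0.00384, and -1.01, adjusted p = 0.00621). CSD2 was -0.96 and did not pass (adjusted p = 0.0818), but in DMSO against WT all 3 were lower (-1.37, -1.47 and -1.25 for CSD1, CSD2 and CCS). Under scaling by total gene counts, CSD1 alone stayed lower in DMSO (-0.67, adjusted p = 0.0239), and none passed in the jas-3-labelled libraries. With the storage protein share as a covariate all 3 were lower in DMSO (-1.40, -2.45 and -1.57, adjusted p = 0.0151, 0.0123 and 0.0142), and none passed in the jas-3-labelled libraries.

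MIR163 (AT1G66725, chr1:24883931-24884559), a young gene whose mature miRNA acts on genes of the SABATH methyltransferase family, had 500 and 423 counts in WT and 708 and 476 in the jas-3-labelled libraries. It had 76, 124 and 54 in DMSO, 28, 40 and 48 in Aza1 eM2, and 60, 105, 42 and 49 in Aza1 eM3. Thus the 4 libraries of untreated plants lay above all 10 libraries of DMSO and Aza1 plants. In TMM-scaled CPM the same split held for MIR156d (1.11 to 1.32 against 0.36 to 1.07) and MIR833a (0.72 to 0.82 against 0.27 to 0.57). Neither passed the test in DMSO against the jas-3-labelled libraries (adjusted p = 0.306 and 0.483). MIR408 split the same libraries in the other direction, by a narrow margin (2.76 to 3.09 against 3.1 to 4.47). It did not pass that test either (adjusted p = 0.513). The share of all genes with such a split was not counted. The log2 fold change of MIR163 in DMSO was -3.19 against WT (standard error 0.43, adjusted p = 0.000118). Against the jas-3-labelled libraries, the second comparison, it was -2.70 (standard error 0.43, adjusted p = 0.00628). The second value kept its direction in all 23 alternatives (-3.15 to -2.46). Its adjusted p rose above 0.01 when WT 1 or 2, jas-3 1 or 2, DMSO 1 or 3, Aza1 eM2 1, or Aza1 eM3 1 or 4 was left out (0.0103 to 0.0651), and was 0.039 in a fit of only these groups. The row of 123 bases after MIR163 had 15 to 38 counts in the same 4 libraries and 0 to 4 in the others.

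Genes of the circadian clock split the libraries in the same way. LHY, which peaks at dawn, had 3887 to 4257 counts in WT and in the jas-3-labelled libraries and 160 to 470 in all others. FKF1, which peaks in the afternoon, had 50 to 92 in the former and 1478 to 2498 in the latter. In TMM-scaled CPM, WT and the jas-3-labelled libraries differed as well. LHY had 138.4 and 154.5 in WT against 76.4 and 82.7, and FKF1 had 2.73 and 3.5 against 0.925 and 1.96. CCA1 and GI were also higher in WT without overlap, and TOC1 overlapped (all genes, 72% without overlap). In DMSO against the jas-3-labelled libraries, LHY and CCA1 were lower (-3.36, adjusted p = 1.12e-05, and -2.40, adjusted p = 2.07e-05) and FKF1, TOC1 and GI were higher (4.87, 1.48 and 0.86). The part of sampling time in the counts of MIR163, MIR156d, MIR833a and MIR408 was not tested, and the labels give none. MIR156d and MIR833a lie in introns of AT5G10946 and AT1G78476, and host reads cannot be told apart from theirs. Before scaling, AT5G10946 had 285 to 417 counts in WT and the jas-3-labelled libraries and 154 to 263 in the others. AT1G78476 had 185 to 333 in the former and 91 to 234 in the latter. The targets of MIR163 were added after the data were seen. FAMT was lower than in WT in the jas-3-labelled libraries (-1.60, adjusted p = 0.0343), where MIR163 did not pass the test (-0.49, adjusted p = 0.408). FAMT was also lower than in WT in DMSO (-2.34, adjusted p = 0.0022), where MIR163 was lower. PXMT1 was higher in Aza1 eM3 against Aza1 eM2 (3.77, adjusted p = 0.0468), with 124 and 143 counts in Aza1 eM3 1 and 2 and 28 and 22 in Aza1 eM3 3 and 4.

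**Figure D4:**
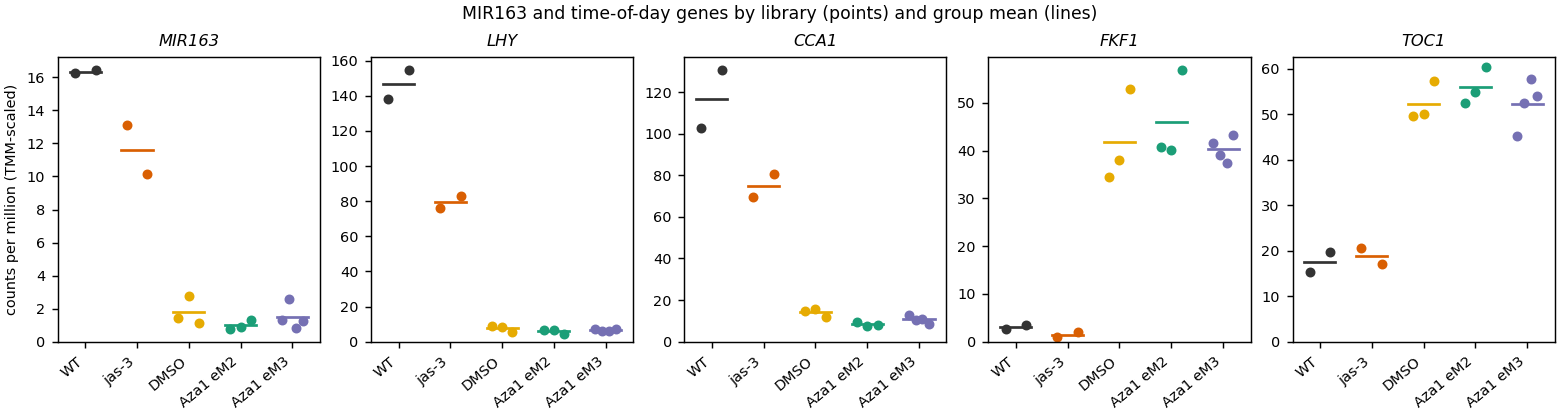
TMM-scaled CPM of MIR163 and the clock genes LHY, CCA1, FKF1 and TOC1 (1 panel each, vertical axes from 0) in the 14 libraries by group, with a line at the group mean. For all 5 genes WT and the jas-3-labelled libraries lie on one side of DMSO, Aza1 eM2 and Aza1 eM3 without overlap.

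The other members at an adjusted p under 0.05 belong to young or less studied families. MIR822 (chr5:897020-897356), whose miRNA acts on genes for DC1 domain proteins, had 0 and 2 counts in WT, 10 and 18 in the jas-3-labelled libraries, 6, 11 and 9 in DMSO, 7, 6 and 5 in Aza1 eM2, and 10, 4, 13 and 10 in Aza1 eM3. WT was below all others, with 2 counts in all, and the scaled ratio of the jas-3-labelled libraries to WT was 7.83 (95% exact interval 1.97 to 67.8, counting error only). Its log2 fold change was 2.87 (standard error 0.96, adjusted p = 0.0319), without WT 1 it was 1.83 (adjusted p = 0.176) and without jas-3 2 it was 2.27 (adjusted p = 0.142). RefSeq places the protein-coding gene AT5G03553 on the other strand over all 337 bases of MIR822, and counts on AT5G03553 were not analysed here.

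MIR414 (chr1:25137111-25137937) had 344 and 358 counts in WT, 138 and 181 in the jas-3-labelled libraries, 104, 188 and 150 in DMSO, 178, 112 and 162 in Aza1 eM2, and 107, 178, 76 and 143 in Aza1 eM3. WT lay above all other libraries. In DMSO against WT its log2 fold change was -2.0 (standard error 0.43, adjusted p = 0.00244), at the edge of the threshold on fold. MIR414 was not called in DMSO with the storage protein share as a covariate. Its log2 fold change in DMSO ranged from -2.28 to -0.04 over 23 alternatives, and so came near no change. Without WT 2 it was -1.81 (adjusted p = 0.0229) and without DMSO 1 it was -1.76 (adjusted p = 0.0114). Without jas-3 2, Aza1 eM2 1 or 3, or Aza1 eM3 2 it lay just under a fold of 2 on the log2 scale (-2.0 to -1.98), which also ended the call. In the jas-3-labelled libraries it was -1.97 (adjusted p = 0.00791), without jas-3 1 it was -1.70 (adjusted p = 0.0798), and with the storage protein share as a covariate it changed sign to 0.44 (adjusted p = 0.737). Its flanking rows had 0 to 4 counts in every library.

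MIR826a (chr4:1340479-1340656) had 185 and 234 counts in WT, 115 and 216 in the jas-3-labelled libraries, 125, 152 and 155 in DMSO, 195, 203 and 146 in Aza1 eM2, and 225, 187, 104 and 198 in Aza1 eM3. The counts overlapped, but in CPM WT (6.02 and 9.10) lay above all other libraries (2.02 to 5.38). MIR826a was lower in both comparisons against WT (-1.17, adjusted p = 0.0482, and -1.32, adjusted p = 0.014), and with total gene counts as the scale the values were -0.38 and -0.60. A non-coding RNA, AT4G03038, covers it on the other strand in RefSeq, and counts on AT4G03038 were not analysed here. MIR843 (chr3:17742109-17742291) had 61 to 134 counts in all 14 libraries and passed no test. The row of 249 bases before MIR843 had 61 to 134 counts as well, equal to those of MIR843 in several libraries, and whether both rows count the same reads was not tested.

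Of the 41 genes, 18 shared bases with another gene row, 10 within an intron, 2 within an exon, 2 across both, and 4 on the other strand. At an adjusted p under 0.05 in the jas-3-labelled libraries against WT, 3 of the 17 tested overlapping genes were higher and 1 was lower, and of the 23 others 3 were higher and 3 lower (all genes, 23.7% and 16.5%). The 23 others are not all free of overlap. RefSeq places genes without a row in the deposited counts over MIR822, MIR826a and MIR850 and over part of MIR863. MIR822 and MIR826a were among those that passed. Where a miRNA gene lies in an intron, an unspliced host transcript gives counts on both rows, and the 2 sources cannot be told apart. Members and hosts are compared per length in what follows. The length of a host is that of its whole row, introns included. Whether a read that only partly overlaps a row counts on it is not given in the sources used here. If it does, short rows gain most per kb, so a miRNA gene above its host per kb need not be more expressed.

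MIR853 (chr3:8346393-8346639), in an intron of AT3G23325, had 37 and 31 counts in WT, 149 and 121 in the jas-3-labelled libraries, 112, 123 and 122 in DMSO, 101, 113 and 85 in Aza1 eM2, and 136, 78, 143 and 82 in Aza1 eM3. WT was below all others. MIR853 had 17.3% to 23.6% of the host's counts in every library. The log2 fold change against WT was 1.15 (adjusted p = 0.00523) for MIR853 and 1.12 (adjusted p = 0.000468) for AT3G23325 in the jas-3-labelled libraries, and 1.05 and 1.0 in DMSO. Per kb, the median count over the libraries was 455.0 on MIR853 and 408.0 on its host. MIR837 (chr1:6520941-6521124), in an intron of the nitrate transporter gene NRT1.9, had 67 and 93 counts in WT, 67 and 59 in the jas-3-labelled libraries, 58, 34 and 73 in DMSO, 33, 48 and 70 in Aza1 eM2, and 69, 55, 60 and 43 in Aza1 eM3. The counts of MIR837 overlapped, but on the TMM scale WT (2.18 and 3.62 CPM) lay above all others (0.76 to 1.92). MIR837 was lower in the jas-3-labelled libraries against WT (-1.21, adjusted p = 0.0355), and so was NRT1.9 (-1.04, adjusted p = 0.00121), with 2.69% to 5.49% of the host's counts on the miRNA gene. Without WT 2 the value of MIR837 was -0.79 (adjusted p = 0.249), and without jas-3 1 or 2 it was -1.20 and -1.22 (adjusted p = 0.147 and 0.11). On the scale of total gene counts, it was -0.39 (adjusted p = 0.424).

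MIR860 (chr5:9098791-9098916), within an exon of the ferrochelatase gene FC1, had 103 and 57 counts in WT and 86 to 181 in the others, with a median of 117.0 over the 14 libraries. MIR420 (chr5:25230568-25230667), in an intron of the sugar transporter gene AtVEX1, had 72 and 17 counts in WT, 134 and 100 in the jas-3-labelled libraries, 108, 99 and 98 in DMSO, 72, 169 and 90 in Aza1 eM2, and 64, 74, 116 and 92 in Aza1 eM3. Neither gene nor its host passed a test in any comparison. They were, with MIR826a, the members with the highest counts per kb, MIR420 having a median of 950.0 per kb beside 643.0 on its host, and MIR860 929.0 beside 634.0. MIR408 (chr2:19319780-19321026), the copper gene named above, had 95 and 71 counts in WT, 163 and 143 in the jas-3-labelled libraries, 190, 185 and 181 in DMSO, 162, 165 and 119 in Aza1 eM2, and 165, 149, 209 and 122 in Aza1 eM3. At the other end, MIR402 had 0.18% to 0.808% of the counts of its host AT1G77230 and a median of 42.1 per kb beside 658.0.

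**Figure D5:**
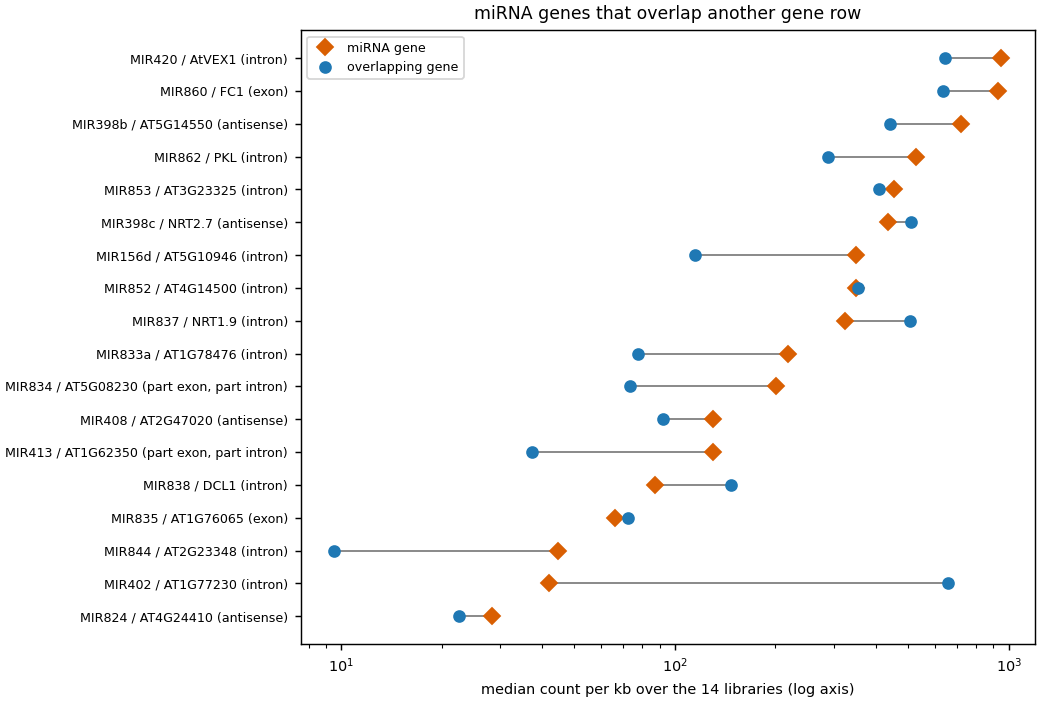
Median count per kb over the 14 libraries (log axis) of the 18 miRNA genes that overlap another gene row (diamonds) and of that gene (circles), with the kind of overlap in brackets. Lengths are those of whole rows, introns of the hosts included. MIR402 lies furthest below its host (42.1 against 658.0) and MIR844 furthest above it (44.6 against 9.53). The latter rests on few reads, with 1 to 11 counts per library on MIR844 and 7 to 30 on its host.

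DCL1 and AGO1 are themselves under miRNA control, DCL1 through miR162 and through miR838 in one of its own introns and AGO1 through miR168. MIR838 (chr1:28500-28706) had 22 and 15 counts in WT, 40 and 17 in the jas-3-labelled libraries, 21, 11 and 31 in DMSO, 19, 7 and 12 in Aza1 eM2, and 8, 24, 30 and 15 in Aza1 eM3. The groups overlapped, and MIR838 had 0.497% to 2.26% of the counts of DCL1, which had 839 to 1826. MIR168a had 0 to 9 counts, MIR168b 0 to 5 and MIR162b 0 to 2 per library, all under the limit for description, and MIR162a was not analysed here. DCL1 and AGO1 did not pass the test in any comparison (-0.07, adjusted p = 0.819, and 0.53, adjusted p = 0.121, in the jas-3-labelled libraries against WT).

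Of 21 genes for miRNA processing, stability and action, 3 were higher and 0 lower at an adjusted p under 0.05 in the jas-3-labelled libraries against WT (all genes, 23.7% and 16.5%), and 1 was higher with the storage protein share as a covariate. The 3 were HEN1, the methyltransferase that protects miRNA 3′ ends (1.37, adjusted p = 1.99e-05), HYL1, the double-stranded RNA binding partner of DCL1 (0.98, adjusted p = 0.00195), and STA1, a splicing factor (0.49, adjusted p = 0.0232). The median of the list was 0.08, beside 0.06 over all genes. In DMSO against WT the 3 were again higher, and AGO2 was lower (-0.95, adjusted p = 5.78e-05). AGO2 was also lower in DMSO against the jas-3-labelled libraries (-0.67, adjusted p = 0.0126). When total gene counts set the scale, 19 of 21 were higher in the jas-3-labelled libraries against WT and the median was 0.86, beside 0.85 over all genes.

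Of 81 target genes of 23 miRNA families, 8 were higher and 32 lower at an adjusted p under 0.05 in the jas-3-labelled libraries against WT (all genes, 23.7% and 16.5%), with a median of -0.26. In DMSO against WT 11 were higher and 37 lower (all genes, 27.1% and 22.6%), with a median of -0.42. Those with the largest changes in the first comparison were the copper protein gene ARPN (-4.65, adjusted p = 0.00333), the growth regulator GRF7 (-3.09, adjusted p = 0.00206) and the AP2 family gene TOE3 (-2.40, adjusted p = 0.000241) on the lower side, and the laccase LAC12 (2.58, adjusted p = 0.0449), MYB101 (1.53, adjusted p = 0.000502) and GRF4 (1.34, adjusted p = 0.00702) on the higher side. This split turned with the scale. With total gene counts 29 were higher and 6 lower in the jas-3-labelled libraries, and 26 were higher and 9 lower in DMSO. With the storage protein share as a covariate, 1 was higher and 1 lower in the jas-3-labelled libraries and 2 were higher and 10 lower in DMSO. None of the 6 genes named passed the test in the jas-3-labelled libraries with this covariate, ARPN then being 0.05 (adjusted p = 0.989), GRF7 -0.41 (adjusted p = 0.852) and TOE3 -1.24 (adjusted p = 0.251).

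The remaining comparisons ask whether the suppressor line Aza1 differs from its solvent control and whether its next generation goes back. In Aza1 eM2 against DMSO 0 of 40 miRNA genes were called by edgeR or DESeq2 (all genes, 0.0716% higher and 1.44% lower), and MIR845b was the only one with an unadjusted p under 0.05 by edgeR (2 by DESeq2). Such genes numbered 8 of 39 without DMSO 3 and 4 of 40 without Aza1 eM2 1, and 6 of 40 with total gene counts as the scale. At an adjusted p under 0.05, 1 was lower (all genes, 3.65%), and the groups did not overlap for 1 higher and 3 lower genes (all genes, 20.7%). In Aza1 eM3 against Aza1 eM2 none was called by either tool (all genes, 0.868% higher and 0.0626% lower), and 2 had an unadjusted p under 0.05 by each tool, by edgeR MIR845b (2.17) and MIR402 (-1.04, adjusted p = 0.209). At an adjusted p under 0.05 there were 0 in either direction (all genes, 2.77% higher and 0.362% lower), and 1 higher and 2 lower genes did not overlap (all genes, 16.1%). In Aza1 eM3 against DMSO none was called by either tool, 2 of 40 had an unadjusted p under 0.05 by edgeR (5 without DMSO 3) and 0 by DESeq2, and edgeR called no gene of the whole table. There 1 higher and 4 lower miRNA genes did not overlap (all genes, 7.66%). In these 3 comparisons the median of the 40 genes was 0.06, -0.02 and 0.04. Of the targets, NF-YA3 of miR169 was higher in Aza1 eM2 against DMSO (0.47, adjusted p = 0.0424) and lower in Aza1 eM3 against Aza1 eM2 (-0.53, adjusted p = 0.0197), and TOE2 of miR172 was lower in the former (-0.45, adjusted p = 0.0168). No processing gene passed the test in any of the 3.

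Markers of seed tissues moved in the same comparisons, and their part in the values above was not tested. The endosperm genes PHE1, FIS2 and MEA and the seed coat gene BAN were higher, and 8 of 8 storage protein genes were lower, in the jas-3-labelled libraries against WT. TT10, also a seed coat gene, passed no test there (0.23, adjusted p = 0.299). The pollen genes VGD1 and PPME1 (-1.16, adjusted p = 0.0314, and -1.40, adjusted p = 0.0268) and the valve gene FUL (-0.72, adjusted p = 0.00665) were lower, and SHP2, a gene of the valve margin, was higher (0.95, adjusted p = 0.0275). PHE1 had 0 and 0 counts in WT, 1831 and 896 in the jas-3-labelled libraries, 525 to 1993 in DMSO, 8 to 48 in Aza1 eM2 and 163 to 1065 in Aza1 eM3, so it was low in the same groups as MIR845b. In Aza1 eM2, FIS2 had 100, 116 and 163 counts, against 10 and 12 in WT and 167 to 261 in DMSO. MEA had 192, 228 and 66 counts in Aza1 eM2, against 26 and 20 in WT and 114 to 190 in DMSO. AGL62, also an endosperm gene, had 6 to 86 counts and passed no test.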

How the data were processed

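The authors deposited raw read counts per annotated row of TAIR10 (genes, transposable elements and intergenic rows), with STAR and TAIR10 named in the submitters' processing notes. The treatment of strand, multiple alignments and overlapping rows is not given in the sources used here. Among low, nonzero counts of gene rows, between 73.7% and 79.0% were even in each library. Whether mates of a pair, or reads across a border of rows, were counted more than once is not given either. Replicates are named as biological in the labels of WT, jas-3 and DMSO and only as replicates in those of Aza1, and the study describes those of Aza1 eM3 as separate sibling plants. For the other groups separate plants are not named, so p-values measure the spread between these samples.

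The deposited counts of the 14 libraries were fitted together in edgeR 4.0.16 (R 4.3.3), with filterByExpr, TMM, the quasi-likelihood test and Benjamini-Hochberg adjustment over 22359 genes. Unless an alternative is named beside them, adjusted p-values of the text come from this fit, or from the same fit over intergenic rows. The filter removed MIR844, so 40 of the 41 described miRNA genes were tested. The code was tested on simulated data. Alternatives were DESeq2 1.42.0, its size factors, total gene counts, other filters, counts divided by 2, only the groups compared, the storage protein share or the replicate number as a term, and each library left out. Sequences and overlaps came from RefSeq TAIR10.1, all chromosome coordinates being those of the deposited TAIR10 rows. Genes were named where they were called, were the 3 with the largest change in a direction at an adjusted p under 0.05, had the highest median counts, or overlapped hosts, and others were chosen after their values were seen. The members and gene lists were chosen with earlier results of these data known. Exact intervals are at 95% and conditional on the counts of both groups.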

Additional observations from a re-analysis of the deposited data

Results flagged for a closer look

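MIR159b, whose miRNA acts on MYB genes, had 1.12 TMM-scaled CPM in Aza1 eM3 1, and the nearest of the other 3 Aza1 eM3 libraries had 0.642. The gap was 0.893 of the range of the group, above Dixon's 95% critical value for 4 libraries. MIR826a had 2.02 CPM in Aza1 eM3 3, and the nearest of the others had 4.64, a gap of 0.871 of the range. Chance alone gives such a gap in about 1 of 20 groups, and the 41 genes were each examined in this group, so these flags carry little weight. Neither gene passed the test in a comparison that includes Aza1 eM3.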

How the results depend on the processing

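Over the alternatives, 15 log2 fold changes of single miRNA genes gave 339 values, of which 338 kept their direction, 260 kept direction and call, and 78 lost the call. The 1 that reversed was MIR414 in the jas-3-labelled libraries against WT with the storage protein share as a covariate (0.44), and the cause was not tested. The number of called miRNA genes in the jas-3-labelled libraries against WT was 2, and it became 4 with total gene counts, 0 in a fit of only these groups, 0 with the covariate and 10 at an adjusted p under 0.05 without a minimum fold. In DMSO against WT it was 4, and it became 2 in a fit of only these groups, 0 with the covariate and 11 at an adjusted p under 0.05. In DMSO against the jas-3-labelled libraries it was 1, and it became 0 in a fit of only these groups. In Aza1 eM2 against DMSO it was 0, and 1 at an adjusted p under 0.05. With each library left out in turn the counts ranged from 0 to 2, from 2 to 5 and from 0 to 1 in the first 3 comparisons, and stayed at 0 in those of Aza1.

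Samples with the same replicate number did not deviate together in every pair (correlations of -0.26 to 0.532), so the number was not taken as a pairing. With a replicate block the calls were 3, 3 and 0 in the first 3 comparisons, and 0 in the others. Under the block, MIR163 in DMSO against the jas-3-labelled libraries was -2.64 (adjusted p = 0.026). MIR845b and MIR822 rest on few counts and have wide intervals, and no limit of detection was tested.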
